A study of Danio rerio with 12 samples.

Results

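SERPINH1, FKBP9, P4HA1 and pcolceb are 4 genes whose products help to fold procollagen in the endoplasmic reticulum or to trim it once it has been secreted. They were followed through regeneration of the zebrafish caudal fin, as 4 of the 33737 Ensembl gene identifiers in a table of raw read counts. They were chosen by name, with earlier results of these libraries known, so their levels are given below as a description with no test. The SERPINH1 described is ENSDARG00000075954, FKBP9 is ENSDARG00000005023, P4HA1 is ENSDARG00000071082 and pcolceb is ENSDARG00000052057. All 4 passed the filter on low counts.

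Collagen chains are made on ribosomes of the endoplasmic reticulum, where prolines are hydroxylated, 3 chains are wound into a triple helix and chaperones hold the helix until it is exported. SERPINH1, also called HSP47, is the chaperone that binds collagen in that compartment. FKBP9 belongs to the family of prolyl isomerases that turn the peptide bonds before proline. P4HA1 is a catalytic subunit of prolyl 4-hydroxylase, whose hydroxyprolines stabilise the helix. Pcolce proteins act outside the cell, where they bind the C-terminal propeptide of procollagen and speed its removal by proteinases of the BMP1 and tolloid family, the step that lets fibrils form. The fin is rich in collagen, in the bony rays, the connective tissue between them and the stiff fibres, called actinotrichia, at its edge.

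Adult fish of the AB-Tu strain, aged 8 to 18 months, gave fins at 4 stages, which were uncut (0 dpa, for days post amputation), 2 dpa, 3 dpa and 10 dpa. No transgene, mutation or drug is named for any stage. Each stage had 3 libraries of polyadenylated RNA, each from a pool of 6 fish, so differences between single fish cannot be seen, and whether 1 fish gave tissue at more than 1 stage is not stated. In bulk RNA such as this, fewer cells of a type and less RNA per cell cannot be told apart.

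Library totals ran from 8833337 to 22843743 counts. Replicate 2 at 2 dpa stood apart from the other 2 dpa libraries. On the second principal component it lay at 4.84, the other two at -46.8 and -72.5, and the 3 dpa libraries between 26.9 and 34.0. Many results that rest on it are given with and without it. Markers of the tissues of the fin were present. The 6 epidermal identifiers found summed to between 27469 and 82589 CPM (counts scaled to a common library size after TMM normalisation) in every library. The 9 identifiers of the blastema and fibroblast list, which mark the proliferating mass from which the fin regrows and its connective tissue, ran from 305 to 1053 CPM in sum before cutting and from 15960 to 39315 CPM at 3 dpa.

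**Figure D1:**
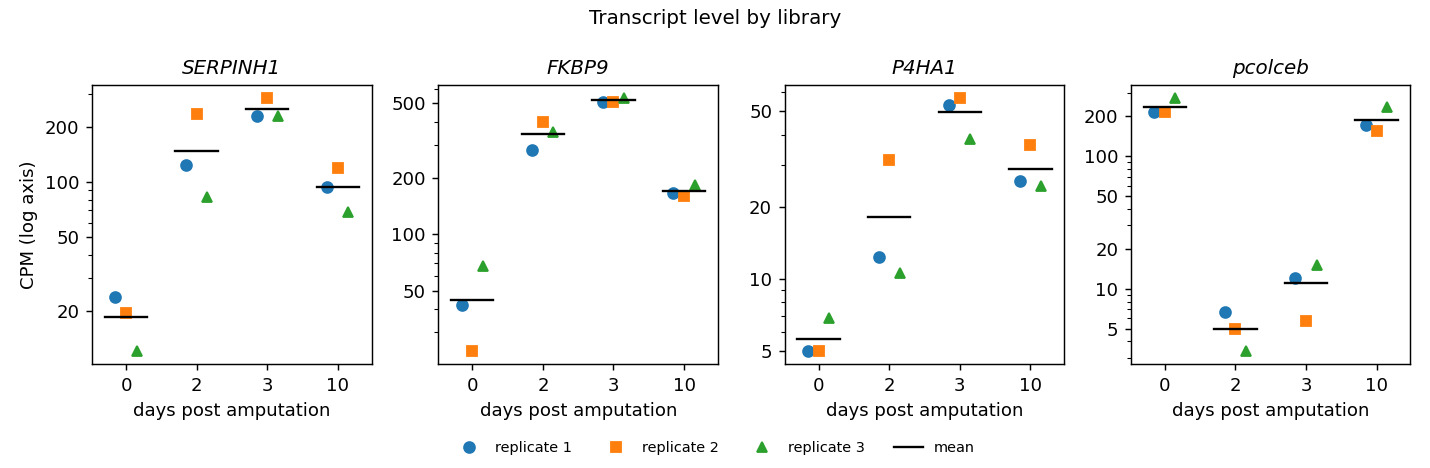
Level of each of the 4 genes in the 12 libraries, in CPM on a log axis with a scale of its own in each panel, against days post amputation; points are libraries, with a marker for each replicate number, and bars are means of n = 3. SERPINH1, FKBP9 and P4HA1 have their highest mean at 3 dpa, and pcolceb has its lowest mean, 4.98 CPM, at 2 dpa.

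The 3 folding factors stood at their lowest in the uncut fin, were higher at 2 dpa, highest at 3 dpa and lower again, but still above the uncut fin, at 10 dpa. The propeptide factor pcolceb instead had its highest mean in the uncut fin and its lowest at 2 dpa. Its means were 2.11% and 4.66% of the uncut mean at 2 and 3 dpa, and its range overlapped the uncut one at 10 dpa. The plot of levels by stage shows both courses.

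SERPINH1, the collagen chaperone, was measured at 23.7, 19.4 and 12.0 CPM in uncut replicates 1, 2 and 3. At 2 dpa the same numbers gave 124, 233 and 82.6 CPM, at 3 dpa 229, 287 and 229 CPM, and at 10 dpa 94.1, 120 and 68.6 CPM. Every regenerating library was above every uncut one, the 3 dpa libraries were all above those of 10 dpa, and the 2 dpa libraries overlapped with both later stages, with replicate 2 in the range of 3 dpa. In edgeR's fit over all libraries the level was 7.95-fold that of the uncut fin at 2 dpa, a log2 difference of 2.99 ± 0.37 (SE), and 5.57-fold without 2 dpa replicate 2. It was 13.5-fold at 3 dpa (log2 3.75 ± 0.38) and 5.12-fold at 10 dpa (log2 2.35 ± 0.36). From 3 to 10 dpa it was 2.63-fold lower (log2 -1.40 ± 0.35). The 10 dpa mean, 94.1 ± 25.6 CPM (SD, n = 3), was 37.9% of the 3 dpa mean.

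FKBP9, the prolyl isomerase, was measured at 42.2, 23.7 and 67.6 CPM in the uncut replicates. It gave 284, 396 and 354 CPM at 2 dpa, 509, 512 and 537 CPM at 3 dpa, and 166, 160 and 184 CPM at 10 dpa. No pair of stages overlapped, and the order of every library was uncut, 10 dpa, 2 dpa, 3 dpa. The SD was 3.01% of the mean at 3 dpa, where the level was 519 ± 15.6 CPM (SD, n = 3), and 49.5% of it in the uncut fin. Relative to the uncut fin FKBP9 was 7.76-fold higher at 2 dpa (log2 2.96 ± 0.31), 11.7-fold higher at 3 dpa (log2 3.55 ± 0.32) and 3.82-fold higher at 10 dpa (log2 1.93 ± 0.30). Between the regenerating stages it was 1.51-fold higher at 3 than at 2 dpa and then 3.06-fold lower at 10 dpa (log2 -1.61 ± 0.30). It was also lower at 10 than at 2 dpa, by 2.03-fold. Of the 3 folding factors it was the one whose 2 and 10 dpa libraries did not overlap.

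P4HA1, the hydroxylase subunit, was measured at 5.00, 5.02 and 6.86 CPM in the uncut replicates. It gave 12.4, 31.5 and 10.6 CPM at 2 dpa, 53.4, 57.1 and 38.3 CPM at 3 dpa, and 25.6, 36.2 and 24.5 CPM at 10 dpa. Again no regenerating library reached down to the uncut range, and the 3 dpa libraries were all above the rest. The early value rests in part on 1 library, because 2 dpa replicate 2 was above the other two 2 dpa libraries and inside the range of 10 dpa. With it P4HA1 was 3.24-fold higher at 2 dpa than in the uncut fin (log2 1.70 ± 0.37), and without it 2.04-fold higher. The difference from 2 to 3 dpa was 2.73-fold with that library (log2 1.45 ± 0.35) and 4.28-fold without it. At 3 dpa P4HA1 was 8.85-fold (log2 3.15 ± 0.38) and at 10 dpa 5.14-fold (log2 2.36 ± 0.38) its uncut level. The level at 10 dpa was 58.0% of the 3 dpa mean, against 37.9% for SERPINH1 and 32.7% for FKBP9. From 2 to 10 dpa P4HA1 differed by a log2 value of 0.66 ± 0.35, with overlapping libraries, or by 1.33 without 2 dpa replicate 2.

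The gene pcolceb, a propeptide factor, was measured at 216, 215 and 277 CPM in the uncut replicates. It gave 6.64, 4.93 and 3.36 CPM at 2 dpa, 12.1, 5.73 and 15.1 CPM at 3 dpa, and 173, 156 and 235 CPM at 10 dpa. The 2 and 3 dpa libraries were far below all others and overlapped with each other, and the 10 dpa libraries overlapped with the uncut ones. The lowest count, in 2 dpa replicate 3, was 43 reads. At 2 dpa pcolceb was 46.9-fold lower than in the uncut fin (log2 -5.55 ± 0.38), and between 40.5- and 56.5-fold lower over the fits that left out 1 library each. At 3 dpa it was 21.7-fold lower (log2 -4.44 ± 0.36). From 3 to 10 dpa it was 17.2-fold higher (log2 4.11 ± 0.36), and at 10 dpa it differed from the uncut fin by a log2 value of -0.33 ± 0.31. Its mean was 2.11% of the uncut mean at 2 dpa, 4.66% at 3 dpa and 79.6% at 10 dpa.

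Against the uncut fin, 3 of the 4 genes had higher and 1 had lower libraries without overlap at both 2 and 3 dpa. Of all 16612 genes tested, 26.6% were higher and 28% lower without overlap at 2 dpa, and 29.7% and 26.8% at 3 dpa. At 10 dpa the 3 folding factors were higher without overlap, against a background of 19.5%, and none was lower, against 14.5%. From 2 to 3 dpa FKBP9 and P4HA1 were higher without overlap, against 11.8% of all genes, and no member was lower, against 6.51%. From 3 to 10 dpa the 3 folding factors were lower and pcolceb higher, against 19.7% of all genes in each direction. From 2 to 10 dpa FKBP9 was lower and pcolceb higher, against 18.4% and 23.2% of all genes. The 4 genes were picked with these contrasts known, so nothing is read from their counts.

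Markers of 4 other tissues, at least 3 of each list, also fell at 2 or 3 dpa by edgeR's quasi-likelihood test with Benjamini-Hochberg adjustment. Of all genes tested, 24.1% fell at 2 dpa, 21.3% at 3 dpa and 2.78% at 10 dpa. The 6 pigment cell markers, of which 6 fell at both 2 and 3 dpa, together stood at 253 to 373 CPM in the uncut fin, 3.75 to 16.2 CPM at 2 dpa, 14.9 to 53.3 CPM at 3 dpa and, by 10 dpa, 383 to 460.3 CPM. The 4 joint and tendon markers, of which 4 fell at 2 dpa, 3 at 3 dpa and 1 at 10 dpa, together stood at 877 to 1182 CPM, 5.55 to 19.1 CPM, 23.9 to 36.1 CPM and 141 to 170.2 CPM at the same stages. Before cutting that sum was mostly prg4a, with a mean of 932 CPM, against 56.8 CPM at 10 dpa. The means of prg4b and GDF5 were also lower at 10 dpa than uncut, while that of TNMD was higher, at 83.7 against 38.0 CPM. Of the 6 epidermal markers 2 fell at 2 dpa, 5 at 3 dpa and 1 at 10 dpa, and the sums ran from 61888 to 82589 CPM in the uncut fin, 40383 to 63990.1 CPM at 2 dpa, 27469 to 28534 CPM at 3 dpa and, by 10 dpa, 49663 to 57937 CPM. The epidermal sum was mostly krt5 and krt4, at 55287 and 10611 CPM on average in the uncut fin. Of the 3 endothelial markers tested 3 fell at 2 dpa and 1 at 3 dpa, and 1 rose at 10 dpa. The 4 endothelial identifiers found summed to 58.4 to 67.5 CPM in the uncut fin, 18.2 to 36.2 CPM at 2 dpa, 60.4 to 98.5 CPM at 3 dpa and, by 10 dpa, 84.7 to 109 CPM. On the osteoblast and leukocyte lists 1 of 6 and 1 of 3 fell at 3 dpa, and 0 at 2 dpa (1 and 0 at an unadjusted p under 0.05). Of the 6 osteoblast markers 2 rose at 3 dpa, beside the 1 that fell, against 22.8% and 21.3% of all genes. At 10 dpa 3 rose, against 6.62%. The summed osteoblast level before cutting was 244 to 396 CPM. Its later ranges, in order of stage, were 200 to 282, 325 to 674 and 854 to 1068 CPM. The means of SP7 and PANX3 were highest at 3 dpa, at 61.6 and 150 CPM. Those of ENTPD5 and spp1 were highest at 10 dpa, at 420 and 313 CPM. The means of RUNX2 and runx2b lay between 50.6 and 82.3 CPM at every stage. No identifier of the 4 lists that fell was at 0 in every library. The part of those 4 lists in the course of pcolceb was not tested. Beside the folding factors, the summed level of the blastema and fibroblast list was highest at 3 dpa too, with sums from 2228 to 7639 CPM for 2 dpa and from 5200 to 10047 CPM for 10 dpa. That sum was mostly and1 and and2, genes of actinotrichia, at 23641 and 6376 CPM on average at 3 dpa. The means of msx1b, PRRX1 ENSDARG00000033971 and PRRX1 ENSDARG00000042027 were also highest at 3 dpa, at 226, 103 and 95.1 CPM. Others of the list ran differently. ALDH1A2 had means of 137 CPM at 2 dpa and 105 CPM at 3 dpa, and TPH1 ENSDARG00000036082 had 130.3 and 31.7 CPM. Of the 9, 5 rose at 2 dpa, 8 at 3 dpa and 5 at 10 dpa, against 22.9%, 22.8% and 6.62% of all genes. At 3 dpa 1 fell, against 21.3%, and 0 fell at 2 and 10 dpa (1 and 0 at an unadjusted p under 0.05). The part of these genes, or of the osteoblast list, in the course of the folding factors was not tested either.

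The genes whose levels ran most like each of the 4 over the 12 libraries were found by Pearson's r of log2 CPM. Only tested genes with a symbol were ranked. These libraries fall into stages, so a high r says mainly that 2 genes share a course over the stages. Among those nearest to SERPINH1 were srr (r = 0.986), ITGA9 (0.984), POFUT2 (0.982) and MCFD2 (0.976). Nearest to FKBP9 were MDK (0.987), CRTAP (0.986), rrbp1b (0.985), SPCS3 (0.983) and SLC7A10 (0.981). CRTAP is a subunit of the prolyl 3-hydroxylase complex that acts on collagen. Nearest to P4HA1 were AGTR1 (0.978), NID1 (0.976), PLOD1 (0.973), zgc:162816 (0.971) and KDELR3 (0.969). PLOD1 is a lysyl hydroxylase of collagen and NID1 is a basement membrane protein. Nearest to pcolceb were htra4 (0.994), TFAP2E (0.992), LAMB1 (0.990), col17a1a (0.990) and pmela (0.989). Among these, pmela is a gene of pigment granules and is also on the pigment list above, and LAMB1 and col17a1a encode proteins that anchor epithelia.

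Fibrillar collagen chains also changed over the same days. The 12 fibrillar chain identifiers found summed to 13334, 7024 and 30569 CPM in uncut replicates 1, 2 and 3 and to 28578, 53093 and 25704 CPM at 2 dpa. They summed to 81897, 66580.0 and 71793 CPM at 3 dpa and to 59191, 64289 and 73303 CPM at 10 dpa. Replicate 3 was highest of the uncut libraries and replicate 2 of those at 2 dpa, the ranges of these stages overlapped, and so did those of 3 and 10 dpa. By edgeR's quasi-likelihood test with Benjamini-Hochberg adjustment over all genes, 6 of the 12 rose at 2 dpa, 11 at 3 dpa and 10 at 10 dpa, and 0 fell in these 3 comparisons, also at an unadjusted p under 0.05. These counts are read against 22.9%, 22.8% and 6.62% of all genes called higher in the same comparisons. They depend on single libraries: 1, 8 and 1 of these calls, in the same order, held whichever library was left out. Without 2 dpa replicate 2, 1 chain rose and 1 fell at 2 dpa. The one that fell was col5a2b (log2 -3.58, adjusted p = 0.00659 by edgeR, against -1.62 and 0.149 with that library). Without uncut replicate 3 its log2 difference was 0.018. From 3 to 10 dpa 0 of the 12 passed in edgeR, also at an unadjusted p under 0.05 and whichever library was left out, and 1 passed when those 2 stages were fitted alone.

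**Figure D2:**
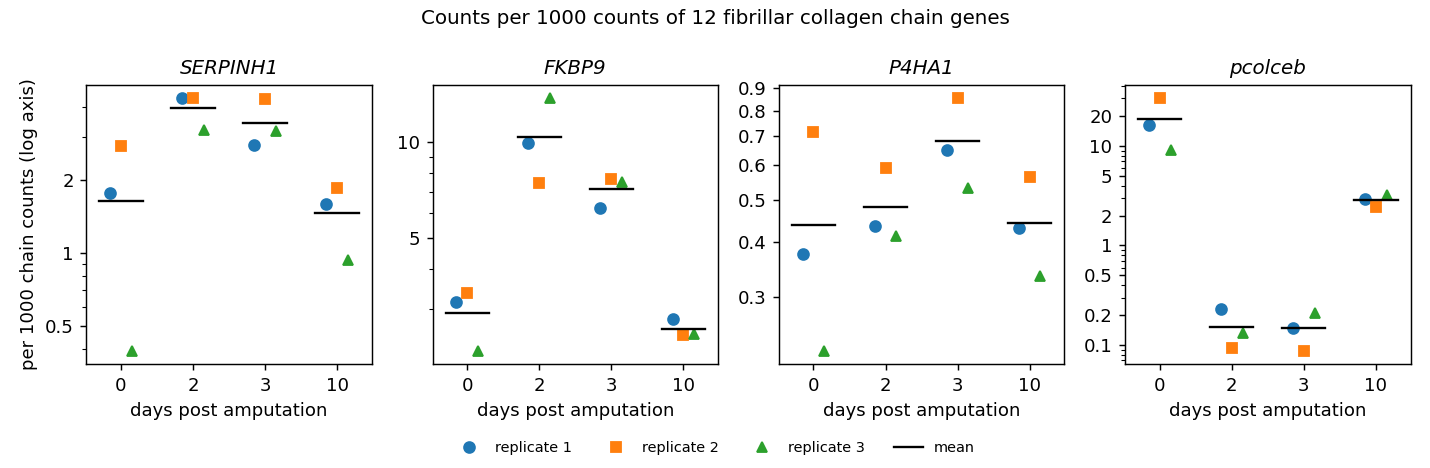
Counts of each gene per 1000 counts of the 12 fibrillar collagen chain genes in the same library, on a log axis with a scale of its own in each panel, against days post amputation; points are libraries, with a marker for each replicate number, and bars are means of n = 3. The 2 and 3 dpa libraries lie above the others for SERPINH1 and FKBP9, for SERPINH1 narrowly (2.80 at 3 dpa against 2.76 uncut). The stages overlap for P4HA1, and for pcolceb the 10 dpa libraries lie below the uncut ones.

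Set against the collagen counts of the same library, the 4 genes separated the stages differently than in CPM. SERPINH1 had between 0.392 and 2.76 counts per 1000 collagen counts in the uncut fin, 3.21 to 4.38 at 2 dpa, 2.80 to 4.31 at 3 dpa and 0.936 to 1.86 at 10 dpa. FKBP9 had 2.21 to 3.37, 7.46 to 13.8, 6.21 to 7.69 and 2.48 to 2.80 at the same stages. For both genes the 2 and 3 dpa libraries were above the uncut and 10 dpa libraries, and the uncut and 10 dpa ranges overlapped, so that at 10 dpa the ratio to collagen was in the uncut range while the CPM was above it. P4HA1 had 0.225 to 0.714, 0.414 to 0.593, 0.533 to 0.858 and 0.334 to 0.563, with the uncut range overlapping every other stage. The factor pcolceb had 9.05 to 30.6 in the uncut fin, 0.0928 to 0.232 at 2 dpa, 0.0861 to 0.211 at 3 dpa and 2.42 to 3.20 at 10 dpa. Its ratio at 10 dpa was thus below every uncut library, although its CPM overlapped with theirs. Per 1000 counts of the 3 type I chain identifiers alone, SERPINH1 had 0.432 to 3.09 in the uncut fin and 2.99 to 4.67 at 3 dpa. Its uncut and 3 dpa ranges thus overlapped with that denominator. The overlaps and separations given for FKBP9, P4HA1 and pcolceb were the same with it. These ratios are descriptions of counts, are not corrected for gene length and were not tested. Uncut replicate 3, which had the highest collagen sum of its stage, gave the lowest ratio of all 3 uncut libraries for each of the 4 genes.

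The 4 genes have relatives in these libraries, and 10 other identifiers of the same families on the collagen lists passed the filter on low counts. Of the FKBP genes only FKBP7, FKBP10, fkbp11 and FKBP14 are among them, so the 10 are not whole families. How reads shared by similar copies were counted is not given in the sources used here, so the split between copies is uncertain. By edgeR's quasi-likelihood test with Benjamini-Hochberg adjustment, 8 of the 10 rose and 1 fell at 2 dpa, 10 rose at 3 dpa and 9 rose at 10 dpa. Of all genes tested, 22.9% rose and 24.1% fell at 2 dpa, 22.8% rose at 3 dpa and 6.62% rose at 10 dpa. Of these family calls, 7, 9 and 5 held whichever library was left out.

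**Figure D3:**
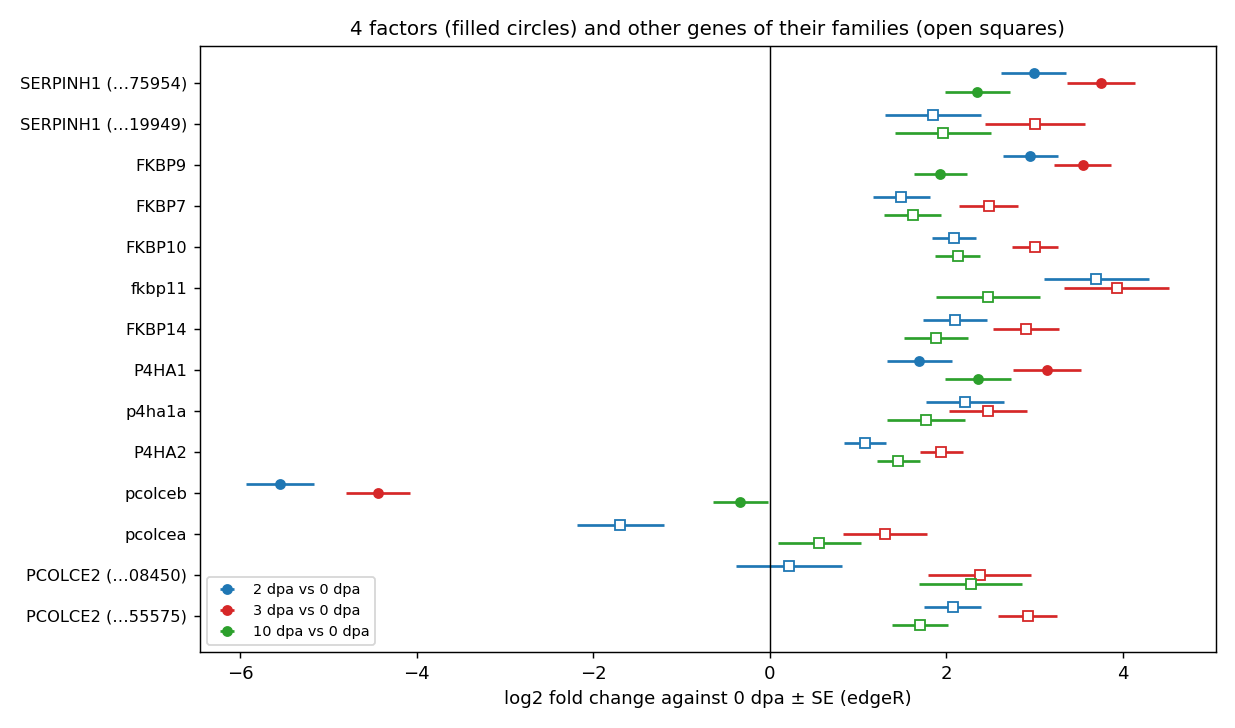
Log2 difference from the uncut fin at 2, 3 and 10 dpa, by edgeR with SE bars from 3 libraries a stage, for the 4 genes and the 10 other listed identifiers of their families. Points right of 0 are higher in the regenerating fin; pcolceb lies at -5.55, -4.44 and -0.33 while PCOLCE2 ENSDARG00000055575 lies at 2.07, 2.93 and 1.70.

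The other SERPINH1 identifier, ENSDARG00000019949, stood at 43.5 ± 21.2 CPM in the uncut fin, 157 ± 119 CPM at 2 dpa, 351 ± 67.4 CPM at 3 dpa and 169.6 ± 77.8 CPM at 10 dpa (SD, n = 3). It rose at 3 dpa (log2 3.01, adjusted p = 8.32e-04 by edgeR's quasi-likelihood test). Its rise at 2 dpa (adjusted p = 0.0127) was lost without 2 dpa replicate 2 (adjusted p = 0.101), where the fold went from 3.61 to 2.10, and with no filter on low counts (0.0703). Its rise at 10 dpa (adjusted p = 0.0386) was lost without any one of 8 libraries, at up to 0.155 without 10 dpa replicate 2, and with no filter (0.160). With the replicate number as a block it also rose from 2 to 3 dpa (adjusted p = 0.0283) and fell from 3 to 10 dpa (adjusted p = 0.0163), which it did not without the block (0.302 and 0.184). The identifier ENSDARG00000075954 held 27.8 to 37.3% of the counts of the 2 SERPINH1 identifiers in the uncut fin and 44.7 to 60.9% at 2 dpa. It held 39.6 to 44.5% at 3 dpa and 33.3 to 44.4% at 10 dpa, so the uncut and 2 dpa ranges did not overlap.

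Among the other FKBP isomerases of the endoplasmic reticulum, FKBP7, FKBP10, fkbp11 and FKBP14 each rose at 2, 3 and 10 dpa. FKBP10, in which human mutations cause brittle bones, went from 23.3 ± 9.38 CPM in the uncut fin to 98.8 ± 16.6, 187 ± 16.0 and 102 ± 7.62 CPM (SD, n = 3), with log2 differences of 2.09, 3.00 and 2.13 (adjusted p = 2.51e-05, 3.41e-06 and 8.47e-04 by edgeR). FKBP7 stood at 99.8 CPM in the uncut fin and 557 ± 16.6 CPM at 3 dpa (log2 2.48, adjusted p = 6.70e-05). FKBP14 stood at 12.3 and 92.0 CPM at the same stages (log2 2.91, adjusted p = 4.66e-05), and its 4.28-fold rise at 2 dpa was 2.78-fold without 2 dpa replicate 2. The lowest of these in CPM, fkbp11, stood at 2.11 ± 1.71 CPM in the uncut fin, 26.4 ± 21.2 CPM at 2 dpa, 30.9 ± 10.4 CPM at 3 dpa and 11.3 ± 2.49 CPM at 10 dpa. Its fold at 2 dpa ran from 6.93 without 2 dpa replicate 2 to 23.1 without uncut replicate 3, and its rise at 10 dpa was lost without uncut replicate 1 (adjusted p = 0.0935), uncut replicate 2 (0.101) or 10 dpa replicate 2 (0.0844), or with no filter (0.0916). All 5 isomerases including FKBP9 had their highest mean at 3 dpa. With the replicate block fkbp11 and FKBP14 also fell from 3 to 10 dpa (adjusted p = 0.0418 and 0.0271), which they did not without it (0.0593 and 0.0518).

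The prolyl 4-hydroxylase family held p4ha1a and P4HA2 besides P4HA1. P4HA2, another catalytic subunit, went from 26.2 ± 3.06 CPM in the uncut fin to 55.2 ± 19.8, 101 ± 11.2 and 72.1 ± 3.64 CPM, and rose at 2, 3 and 10 dpa (log2 1.08, 1.94 and 1.46, adjusted p = 0.00228, 3.94e-05 and 0.00344 by edgeR). The identifier p4ha1a stayed low, from 1.13 ± 0.434 CPM in the uncut fin to 6.12 ± 2.17 CPM at 3 dpa (log2 2.48, adjusted p = 5.63e-04). Its rise at 10 dpa (adjusted p = 0.0263) was lost without uncut replicate 1 or 2 or 10 dpa replicate 2 or 3, at 0.0745 to 0.115. P4HA1 held 14.1 to 21.1% of the counts of the 3 identifiers in the uncut fin, 17.3 to 27.6% at 2 dpa, 27.6 to 35.8% at 3 dpa and 23.3 to 32.7% at 10 dpa. Its share at 3 and 10 dpa was above every uncut library.

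The Pcolce family did not move as one. While pcolceb was at its lowest at 2 dpa, PCOLCE2 ENSDARG00000055575 went from 33.5 ± 14.6 CPM in the uncut fin to 141 ± 28.9 CPM at 2 dpa, 254 ± 86.0 CPM at 3 dpa and 109 ± 17.6 CPM at 10 dpa (SD, n = 3). It rose at each stage against the uncut fin (log2 2.07, 2.93 and 1.70, adjusted p = 1.81e-04, 2.17e-05 and 0.00653 by edgeR). The gene pcolcea was measured at 29.7, 27.2 and 17.1 CPM in the uncut replicates and at 4.38, 15.4 and 3.20 CPM at 2 dpa. It gave 65.0, 31.9 and 87.0 CPM at 3 dpa and 33.2, 35.5 and 40.8 CPM at 10 dpa, so that all 2 dpa libraries were lowest and 3 and 10 dpa overlapped. It fell at 2 dpa (log2 -1.69 ± 0.49, adjusted p = 0.0122), and without 2 dpa replicate 1 or with no filter this was lost (adjusted p = 0.0509 and 0.0611), while without 2 dpa replicate 2 the fall was 6.50-fold in place of 3.23-fold. Its rise over the uncut fin at 3 dpa (log2 1.31 ± 0.48, adjusted p = 0.0379) was lost with the replicate block (adjusted p = 0.0610), with no filter (0.134) and without any one of 6 libraries, at up to 0.149 without 3 dpa replicate 3. From 2 to 3 dpa it rose (log2 3.00 ± 0.51, adjusted p = 0.00732, or 0.0213 with the block), a call lost when those 2 stages were fitted alone (adjusted p = 0.0764). The other PCOLCE2 identifier, ENSDARG00000008450, stayed at 1.59 ± 1.45 and 1.75 ± 1.05 CPM in the uncut fin and at 2 dpa and stood at 8.01 ± 2.64 and 7.45 ± 3.23 CPM at 3 and 10 dpa. It rose at 3 dpa (log2 2.38, adjusted p = 0.00464), a 5.21-fold rise that was 10.4-fold without uncut replicate 3.

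Of all counts on the 4 Pcolce identifiers, pcolceb held 78.9 to 80.9% in the uncut fin, 2.41 to 5.12% at 2 dpa, 2.78 to 4.05% at 3 dpa and 53.3 to 57.0% at 10 dpa. Its share at 10 dpa was thus below every uncut library and above every library of 2 and 3 dpa.

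The wider collagen machinery was covered by lists of 39 other identifiers that passed the filter, sorted by the step at which they act. By edgeR's quasi-likelihood test with Benjamini-Hochberg adjustment, 26 rose and 4 fell at 2 dpa, 32 rose and 2 fell at 3 dpa, and 26 rose and 0 fell at 10 dpa (0 also at an unadjusted p under 0.05). Of all genes tested, 22.9% rose and 24.1% fell at 2 dpa, 22.8% and 21.3% at 3 dpa, and 6.62% and 2.78% at 10 dpa. The median log2 difference of the 39 was 1.44, 2.12 and 1.51 in these 3 comparisons, beside 0.0332, 0.0488 and 0.0356 over all genes. The lists were chosen with earlier results of these data known and overlap with the family genes above. At 10 dpa the call depends on the uncut libraries, with 15 calls left without uncut replicate 1 and 13 without uncut replicate 2.

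**Figure D4:**
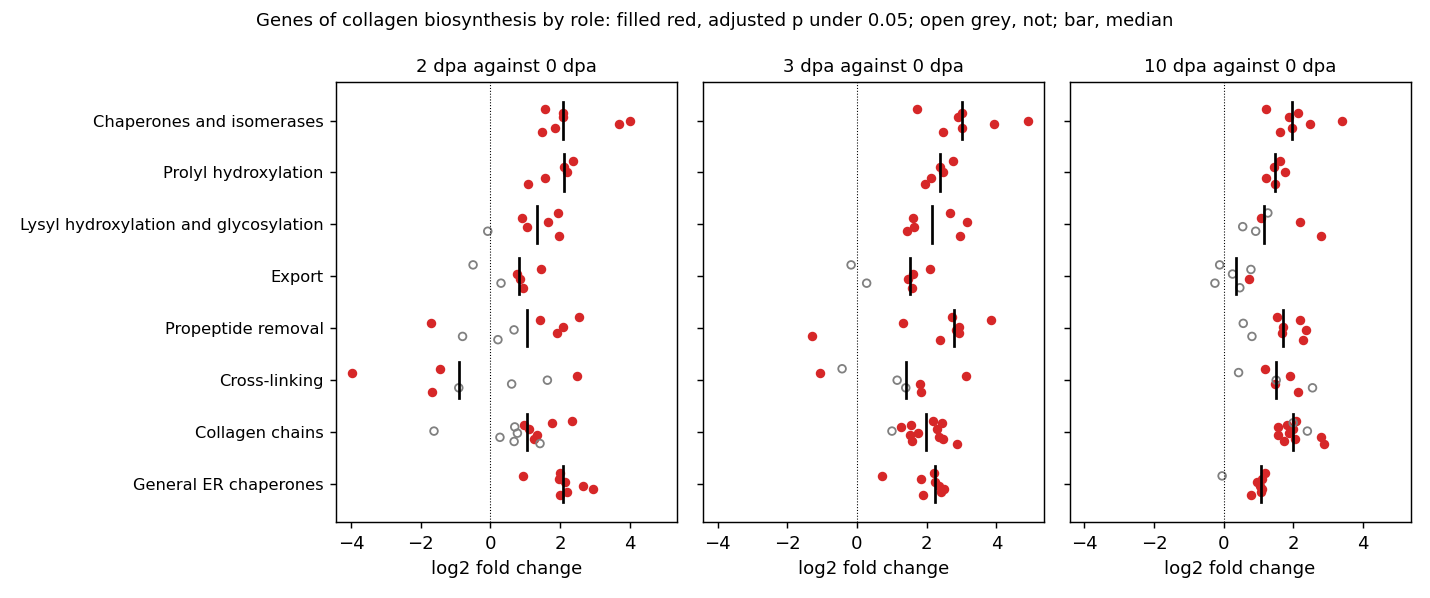
Log2 difference from the uncut fin at 2, 3 and 10 dpa, by edgeR from 3 libraries a stage, for the identifiers of each step of collagen making, without the 4 genes described, and of collagen chains and general chaperones; filled points passed an adjusted p under 0.05, open ones did not, and bars are list medians. Chaperones and prolyl hydroxylases lie right of 0 at all 3 stages, and cross-linking enzymes spread to both sides at 2 dpa.

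At 2 and 3 dpa most identifiers of the steps inside the cell rose. All 7 chaperones and isomerases other than SERPINH1 ENSDARG00000075954 and FKBP9 rose at 2, 3 and 10 dpa, with medians of 2.09, 3.00 and 1.96. All 5 prolyl hydroxylation identifiers other than P4HA1 rose at the same stages, with medians of 2.11, 2.39 and 1.46. Of 6 lysyl hydroxylation and glycosylation identifiers, 5, 6 and 3 rose, and of 6 export identifiers 4, 4 and 1 rose. These counts are read against 22.9%, 22.8% and 6.62% of all genes that rose at the same stages. The calcium-binding protein rcn3, a resident of the endoplasmic reticulum, stood at 3.51 ± 1.24 CPM in the uncut fin and 106 ± 10.1 CPM at 3 dpa (log2 4.92, adjusted p = 1.25e-05 by edgeR). Its 16.1-fold rise at 2 dpa was 8.47-fold without 2 dpa replicate 2. CRTAP went from 37.3 ± 9.66 CPM to 110 ± 25.0, 162 ± 9.12 and 86.0 ± 0.865 CPM and rose at each stage (log2 1.57, 2.12 and 1.21, adjusted p = 7.89e-05, 1.32e-05 and 0.00520). PLOD1 went from 19.6 ± 8.33 CPM to 61.5 ± 35.6, 173 ± 16.1 and 89.6 ± 12.2 CPM and rose likewise (log2 1.66, 3.15 and 2.20, adjusted p = 0.00248, 3.68e-05 and 0.00417).

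Of 8 propeptide removal identifiers other than pcolceb, 4 rose and 1 fell at 2 dpa, 7 rose and 1 fell at 3 dpa, and 6 rose at 10 dpa. The shares of all genes that rose were 22.9%, 22.8% and 6.62% in that order, and 24.1% and 21.3% fell at 2 and 3 dpa. From 2 to 3 dpa 4 of the 8 rose, against 3.28% of all genes. With those 2 stages fitted alone in edgeR, the calls of pcolcea, ADAMTS3 and PCOLCE2 ENSDARG00000008450 were lost (adjusted p = 0.0764, 0.0787 and 0.0852). That of PCOLCE2, at 0.0440 in the main fit, was also lost with the replicate block (0.0635), RLE scaling (0.0525) and no filter (0.0607). It was lost without any one of several libraries too, at up to 0.194 without 2 dpa replicate 3. ADAMTS3, which removes the N-terminal propeptide, went from 5.29 ± 1.22 CPM in the uncut fin to 75.3 ± 8.64 CPM at 3 dpa (log2 3.84, adjusted p = 3.15e-05 by edgeR). In edgeR its rise at 2 dpa was lost without 2 dpa replicate 2 (adjusted p = 0.127) or uncut replicate 1 or 2. Fitting those 2 stages alone lost it too (0.0507). The 10 dpa rises of ADAMTS3 and PCOLCE2 ENSDARG00000008450 were lost without uncut replicate 2 (0.0556 and 0.127). BMP1, the proteinase that Pcolce proteins assist, was counted under 2 identifiers. BMP1 ENSDARG00000028053 stood at 5.61 ± 1.74, 3.14 ± 2.22, 2.32 ± 0.528 and 9.81 ± 1.28 CPM in the uncut fin and at 2, 3 and 10 dpa. It was the one that fell at 3 dpa (log2 -1.29, adjusted p = 0.0273 by edgeR). That call was lost without uncut replicate 1 or 3 or 3 dpa replicate 2 or 3, at 0.0571 to 0.0977. BMP1 ENSDARG00000028053 rose from 3 to 10 dpa (log2 2.10, adjusted p = 0.00444), against 11.3% of all genes. BMP1 ENSDARG00000028071, named after its values were seen, stood at 62.0 ± 16.3, 235 ± 129, 474 ± 76.6 and 199 ± 36.5 CPM. Its 2 dpa libraries stood at 147, 174 and 383 CPM.

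Of 7 cross-linking enzymes, 1 rose and 3 fell at 2 dpa, 3 rose and 1 fell at 3 dpa, and 4 rose at 10 dpa. At 2 and 3 dpa these shares are read against 22.9% and 22.8% of all genes that rose and 24.1% and 21.3% that fell, and at 10 dpa against 6.62% that rose. LOXL2 ENSDARG00000044074, named after its values were seen, was the one that rose at 2 dpa, from 26.3 ± 10.6 CPM to 146 ± 103 CPM. Its 2 dpa libraries stood at 78.3, 94.1 and 265 CPM. LOXL1 stood at 37.9 ± 4.84 CPM in the uncut fin and 2.40 ± 0.867 CPM at 2 dpa (log2 -3.98, adjusted p = 6.94e-07 by edgeR), and at 18.4 ± 4.78 and 51.0 ± 7.26 CPM at 3 and 10 dpa. LOX stood at 36.2 ± 25.8, 11.3 ± 2.15, 130 ± 55.6 and 159 ± 29.8 CPM over the 4 stages. It fell at 2 dpa (log2 -1.68, adjusted p = 0.00663), a 3.20-fold fall that was 1.90-fold without uncut replicate 3, and rose at 3 dpa (log2 1.85, adjusted p = 0.00365).

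From 3 to 10 dpa, when SERPINH1, FKBP9 and P4HA1 were lower, 15 of the 39 machinery identifiers fell and 3 rose. Of all genes, 8.25% fell and 11.3% rose. The medians were -0.86 for the 39 and -0.0170 for all genes. The fallers included 3 of 5 prolyl hydroxylation and 4 of 6 export identifiers. Without 10 dpa replicate 2 the calls went from 18 to 10.

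General chaperones of the endoplasmic reticulum, which serve all secreted proteins, were set beside the collagen factors. All 8 rose at 2 and 3 dpa and 7 of 8 at 10 dpa, with medians of 2.08, 2.23 and 1.06. Of all genes, 22.9%, 22.8% and 6.62% rose, with medians of 0.0332, 0.0488 and 0.0356. At 10 dpa 1 of these 7 calls held whichever library was left out, against 8 of 8 at 2 and at 3 dpa. From 2 to 10 dpa all 8 fell, with a median of -1.17, against 12.2% of all genes. In the collagen machinery 8 of 39 rose, near the 17.8% of all genes that rose, and 1 fell. Of these rises, 4 were of propeptide removal and 4 of cross-linking. On the chaperone, prolyl, lysyl and export lists 0 rose and 0 fell, with medians of -0.21, -0.44, 0.36 and -0.50. At an unadjusted p under 0.05, 1, 2, 0 and 4 of them were lower and 0, 0, 1 and 0 higher. Without 2 dpa replicate 2 the machinery calls went from 9 to 16. HYOU1, a chaperone of the stress response in that compartment, went from 18.3 ± 5.36 CPM in the uncut fin to 141 ± 66.3 CPM at 2 dpa, 103 ± 24.1 CPM at 3 dpa and 39.4 ± 1.94 CPM at 10 dpa. It fell from 2 to 10 dpa (log2 -1.84, adjusted p = 6.68e-04 by edgeR). In that comparison FKBP9 also stood lower, with a log2 difference of -1.02 ± 0.29, SERPINH1 at -0.64 ± 0.34 with overlapping libraries, and P4HA1 at 0.66 ± 0.35. Over the alternative fits FKBP9 ran from -1.15 to -0.90, SERPINH1 from -0.95 to -0.13 and P4HA1 from 0.37 to 1.33.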

How the data were processed

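Raw counts per Ensembl gene identifier were deposited by the authors as 1 table with 1 column per library, per the file headers. RNA was taken with a Macherey-Nagel kit without carrier RNA, and Lexogen SENSE mRNA-Seq libraries were run on a SOLiD Wildfire, per the labels' protocols. Which aligner, counter, genome build and strand setting were used is not given in the sources used here.

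The 12 libraries entered 1 edgeR fit (version 4.0.16, R version 4.3.3) with stage as the only term, filterByExpr (minimum count 10), TMM scaling and edgeR's robust quasi-likelihood test, after a check on simulated data. It held 16612 genes, with a biological coefficient of variation of 26.9%. Genes "rose" or "fell" at a Benjamini-Hochberg adjusted p under 0.05 over all genes in that comparison. SE is the log2 difference over the root of F. P-values measure the spread between pools. Alternatives were RLE, no filter, a replicate block, the 2 stages alone, DESeq2 (version 1.42.0) and leaving out each library.

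The 4 genes, lists and tests were chosen with earlier results of these data known. List symbols were matched to a table of gene names (46 of 57 for the machinery), also by the capital symbol without the paralog letter, which does not tell paralogs apart. Named genes were the 4, the listed genes of their families and, among genes with a symbol, the 5 most alike to each. Per comparison the 3 largest rises and falls were added. These were taken among list genes with an adjusted p under 0.05 and no overlap in CPM between the stages. Not all are printed, and 1 is not reported here.

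A field of the column names (L01 to L03) follows the replicate number, so the numbers pair libraries by label, though what it marks is not spelled out. Deviations from stage means had a median r of 0.119 over 18 same-numbered pairs (-0.225 to 0.478, 11 over 0.1) and -0.0442 over 36 others.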

Additional observations from a re-analysis of the deposited data

Results flagged for a closer look

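For 3 genes the difference from the uncut fin went one way at 2 dpa and the other way later, and edgeR's quasi-likelihood test of the 2 stages against each other passed. The propeptide factor pcolcea had log2 differences from the uncut fin of -1.69 at 2 dpa and 1.31 at 3 dpa, which are 3.00 apart (SE 0.51, adjusted p = 0.00732). That call was lost when the 2 stages were fitted alone (adjusted p = 0.0764). The rise of pcolcea over the uncut fin at 3 dpa was lost with the replicate block (0.0610), with no filter (0.134) and without any one of several libraries. Its fall at 2 dpa was lost without 2 dpa replicate 1 (0.0509) and with no filter (0.0611). LOX had -1.68 at 2 dpa and 1.85 at 3 dpa, which are 3.52 apart (SE 0.46, adjusted p = 0.00223). LOX stood at 2.14 at 10 dpa, 3.82 above its value at 2 dpa (adjusted p = 5.64e-05). LOXL3 ENSDARG00000076306, another cross-linking enzyme, had -1.44 at 2 dpa and 1.20 at 10 dpa, which are 2.64 apart (adjusted p = 1.60e-05). Its rise over the uncut fin at 10 dpa was lost without uncut replicate 2 (adjusted p = 0.0771) or 10 dpa replicate 2 (0.0600), and that of LOX without uncut replicate 1 (0.0555).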

How the results depend on the processing

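The 4 genes kept their direction in every alternative. Of 408 alternative log2 differences, 405 moved by less than 1 SD between libraries, and the other 3 were those of P4HA1 without 2 dpa replicate 2, given above. Leaving out 1 of 3 libraries can hardly move a stage mean by 1 SD, so that count says little about the weight of single libraries. Counts of calls moved more. With the 2 stages fitted alone, 1 collagen chain passed from 0 to 2 dpa, 1 from 3 to 10 dpa and 4 from 2 to 10 dpa, and from 2 to 3 dpa 36 genes and 2 machinery identifiers passed, in place of 627 and 8. With DESeq2, 2361 genes passed from 0 to 10 dpa (1561 in edgeR) and 1019 from 2 to 3 dpa, with 1 chain, and 14 machinery identifiers from 2 to 10 dpa (9 in edgeR). Without the filter, 4 chains passed from 0 to 10 dpa and 0 from 2 to 10 dpa.

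Leaving out 1 library each, genes called ran from 6213 to 7902 (0 to 2 dpa), 5735 to 7969 (0 to 3), 483 to 2395 (0 to 10), 173 to 1393 (2 to 3), 2076 to 3847 (3 to 10) and 3903 to 5055 (2 to 10). Machinery calls ran, in that order, from 29 to 31, 32 to 35, 13 to 27, 4 to 21, 10 to 23 and 7 to 16, with both 21 and 16 reached without 2 dpa replicate 2. Chain calls ran from 1 to 11, 8 to 12, 1 to 12, 0 to 4, 0 to 0 and 1 to 8.

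With the replicate block, machinery calls were 31, 33, 28, 9, 22 and 13 and chain calls 6, 11, 10, 0, 0 and 2 in the same order, and 8478, 8084, 2288, 698, 4018 and 5762 genes passed. Pools of 6 fish in 3 libraries a stage limit what a missed threshold says, and the lowest genes, such as PCOLCE2 ENSDARG00000008450 with 8 to 28 counts in the uncut libraries, rest on few reads.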
